A study of Mus musculus with 12 samples.

Results

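The casein and milk protein genes are Csn1s1, Csn1s2a, Csn1s2b, Csn2, Csn3, Wap, Lalba and Glycam1, 8 of the 47593 genes measured in 12 mouse mammary tumors. They were selected by gene symbol, and the set was drawn up from earlier results of these same tumors, in which milk genes were seen to vary. Their levels and their relations to each other are therefore given as descriptions, without p-values. RNA sequencing was run on 1 library per tumor, and the 12 tumors came from 9 mice: tumors 3 and 4 shared a mouse, tumors 10, 11 and 12 shared another, and each of the other 7 mice gave 1 tumor. All tumors belonged to 1 group, labelled as carrying the MADM RG;GR alleles on a mixed background and as having no treatment, and no normal mammary gland or other control was part of it. Mouse ages are not stated in the labels.

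MADM, mosaic analysis with double markers, uses Cre recombinase to exchange chromosome arms in dividing cells, so that a few Brca1, p53-null cells marked by GFP arise beside heterozygous and wild-type cells. In the study's female mice, Cre was driven by the MMTV promoter, which is active in mammary epithelium, and the Brca1 allele was floxed while the p53 allele was a germline knockout. Each tumor was sequenced as a piece of bulk tissue, so it can hold GFP-marked cells, other epithelium, stroma and fat. In such samples fewer milk-producing cells and less milk RNA per cell cannot be told apart. The targeted genes were present in every tumor, with Brca1 between 6.93 and 24.7 TPM and Trp53 between 30.2 and 74.2 TPM, and gene totals do not show whether the deleted exons were among the transcripts counted. TPM is a relative unit scaled by transcript length, so levels may be compared between genes. Read numbers were not part of these values, so the depth behind each one is unknown and no counting interval is given.

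Caseins are the phosphoproteins that form the micelles of milk. Csn1s1 (alpha-S1), Csn2 (beta) and the alpha-S2-like Csn1s2a and Csn1s2b encode calcium-sensitive caseins, and Csn3 encodes kappa-casein, which coats and stabilizes the micelle. Wap, whey acidic protein, and Lalba, alpha-lactalbumin, are whey proteins, and alpha-lactalbumin is the regulatory subunit of lactose synthase. Glycam1 encodes a mucin-like glycoprotein of milk that is also made by high endothelial venules, the vessels through which lymphocytes enter lymph nodes. Prolactin acting through its receptor, JAK2 and STAT5, together with glucocorticoids and the alveolar factor ELF5, drives these genes in alveolar cells during pregnancy and lactation, and STAT5 dimers recognize palindromes of the form TTCNNNGAA.

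Tumors 2 and 8 stood apart from the others in their epithelial genes. Epcam, an epithelial adhesion molecule, was listed at 0 in tumor 2 and at 2.03 TPM in tumor 8, against 239 to 1004 TPM in the other 10 tumors, and the 7 luminal and epithelial genes together reached 1.38 TPM in tumor 2. Krt8, a luminal keratin, was at 0.326 TPM in tumor 2 but at 128 TPM in tumor 8. It lay between 677 and 3128 TPM in the other 10 tumors. The B cell receptor genes Cd79a and Cd79b were at 609 and 675 TPM in tumor 2. The correlations are given with and without the mice of tumors 2 and 8 where a call at 0.7 turns on them, a step chosen after the data were seen.

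The 5 casein genes lay in one stretch of mouse chromosome 5 of GRCm38, from position 87666208 at the start of Csn1s1 to 87932665 at the end of Csn3, which is 266458 bp by the GENCODE M21 annotation. Csn1s1 and Csn2 are transcribed toward each other with 10045 bp between their 3' ends, whereas Csn3 lies 101152 bp beyond Csn1s2b. Another 8 genes with a measured value lie in the stretch, and 3 of them reached 1 TPM in any tumor. Odam, an ameloblast-associated gene, was the highest of these, with 6.27 TPM in tumor 3. Values of 1 TPM or more in the stretch therefore came from Csn1s1, Csn2, Csn1s2a, Csn3 and those 3 genes. Wap (chr11:6635482-6638637), Lalba (chr15:98480400-98482721) and Glycam1 (chr15:103562759-103565081) lie elsewhere, all on the minus strand.

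Promoter windows of 300 bases, from 250 bases before the RefSeq start, were matched on GRCm38.p6 for 6 of the 8 genes, and Csn1s2b and Csn3 were not matched. The palindrome TTCNNNGAA, which reads the same way on both strands, was found in 4 of the 6 windows and in 8.33% of the 32544 different windows of that length. The 4 windows that hold it are printed 5' to 3' because their genes are set beside each other in the results, with the palindrome in capitals.
Csn1s1, chr5:87665958-87666257, plus strand: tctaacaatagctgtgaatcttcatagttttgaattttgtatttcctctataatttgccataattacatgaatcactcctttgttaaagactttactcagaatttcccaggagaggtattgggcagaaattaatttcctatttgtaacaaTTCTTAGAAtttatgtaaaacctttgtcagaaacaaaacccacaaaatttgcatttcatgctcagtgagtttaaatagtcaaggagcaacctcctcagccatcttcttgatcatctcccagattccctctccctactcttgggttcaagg
Csn2, chr5:87699376-87699675, minus strand: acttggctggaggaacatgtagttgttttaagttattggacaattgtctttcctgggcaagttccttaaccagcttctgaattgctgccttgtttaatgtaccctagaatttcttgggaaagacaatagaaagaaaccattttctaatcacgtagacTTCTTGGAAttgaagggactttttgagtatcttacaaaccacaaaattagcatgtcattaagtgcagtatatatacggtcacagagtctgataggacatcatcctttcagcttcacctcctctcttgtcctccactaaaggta
Csn1s2a, chr5:87774200-87774499, plus strand: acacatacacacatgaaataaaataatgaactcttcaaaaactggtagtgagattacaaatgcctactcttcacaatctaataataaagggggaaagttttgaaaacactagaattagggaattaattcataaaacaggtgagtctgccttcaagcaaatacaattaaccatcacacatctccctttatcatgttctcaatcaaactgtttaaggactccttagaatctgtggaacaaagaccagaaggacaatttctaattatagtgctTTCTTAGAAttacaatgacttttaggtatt
Glycam1, chr15:103565032-103565331, minus strand: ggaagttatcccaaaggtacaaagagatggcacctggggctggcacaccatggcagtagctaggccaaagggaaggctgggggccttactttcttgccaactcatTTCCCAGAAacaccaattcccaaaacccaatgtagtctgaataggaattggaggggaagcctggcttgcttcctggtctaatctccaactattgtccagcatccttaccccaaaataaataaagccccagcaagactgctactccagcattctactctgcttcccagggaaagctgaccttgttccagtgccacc
The first base of the palindrome lies 100 bases before the RefSeq start in Csn1s1, 93 before it in Csn2 and 145 before it in Glycam1. In Csn1s2a it lies 20 bases after the RefSeq start, which is 97 bases before the start that GENCODE gives. The GENCODE start of Csn2 is 205 bp upstream of the RefSeq start, so there the palindrome falls 112 bases after it. Csn1s1 and Csn1s2a share the letters TTCTTAGAA, Csn2 has TTCTTGGAA and Glycam1 has TTCCCAGAA. The Wap and Lalba windows did not hold these letters. A match describes the sequence and does not show that a factor is bound.

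Csn3 was the most abundant milk transcript in most tumors. Its level was lowest in tumor 2 at 0.359 TPM, had a median of 710 TPM and was highest in tumor 3 at 2236 TPM. It was above 300 TPM in 9 tumors, including both tumors of the first multi-tumor mouse (2236 and 1731 TPM) and all 3 of the second (681, 1356 and 1201 TPM). The tumors below were tumor 9 with 26.5 TPM, tumor 8 with 2.75 TPM and tumor 2. Csn3 thus formed a high group with 3 tumors far under it, and of those 3 tumor 9 had the highest Epcam, at 914 TPM.

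Csn1s1 covered a similar span but split the tumors elsewhere. It ranged from 0.0471 TPM in tumor 2 to 1855 TPM in tumor 9, with a median of 205 TPM, and lay above 100 TPM in 7 tumors (3, 4, 5, 6, 9, 11 and 12). In tumors 1, 7 and 10 it stood at 4.21, 9.74 and 11.5 TPM, although Csn3 was at 527, 313 and 681 TPM in those tumors. No tumor had a Csn1s1 level between 11.5 and 186 TPM.

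Csn2, the beta-casein gene, was low in most tumors and very high in 1. Its level was 0 in tumor 2, had a median of 10.9 TPM and reached 3323 TPM in tumor 9. The next values were 127 TPM in tumor 12, 44.6 TPM in tumor 11 and 41.2 TPM in tumor 5. Tumor 9 thus carried more Csn2 than all other tumors together, and Csn2 was the highest of the 8 genes there and in no other tumor.

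The minor caseins were lower. Csn1s2a ranged from 0 in tumors 2, 7 and 8 through a median of 2.91 TPM to 55.0 TPM in tumor 6, with 45.8 TPM in tumor 9 and 23.3 TPM in tumor 12. Tumor 5, with 889 TPM of Csn1s1, had 0.273 TPM of Csn1s2a. Csn1s2b never reached 1 TPM, and its highest value was 0.616 TPM in tumor 6. It was listed at 0 in tumors 2, 8 and 9, the last of which had the highest Csn1s1 and Csn2.

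Whey genes were near or at 0 in many tumors. Lalba was listed at 0 in tumors 1, 2, 7 and 8, had a median of 1.48 TPM and peaked at 25.3 TPM in tumor 6, with 12.0 TPM in tumor 12 and 8.21 TPM in tumor 11. Wap was listed at 0 in 7 tumors and reached 1 TPM in tumor 6 (3.76 TPM) and tumor 9 (1.08 TPM). Glycam1 was listed at 0 in tumors 1, 2, 7, 8 and 10, had a median of 1.13 TPM and peaked at 10.8 TPM in tumor 11. Tumors 1 and 7 therefore had Csn3 above 300 TPM with Lalba, Wap and Glycam1 all at 0.

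**Figure D1:**
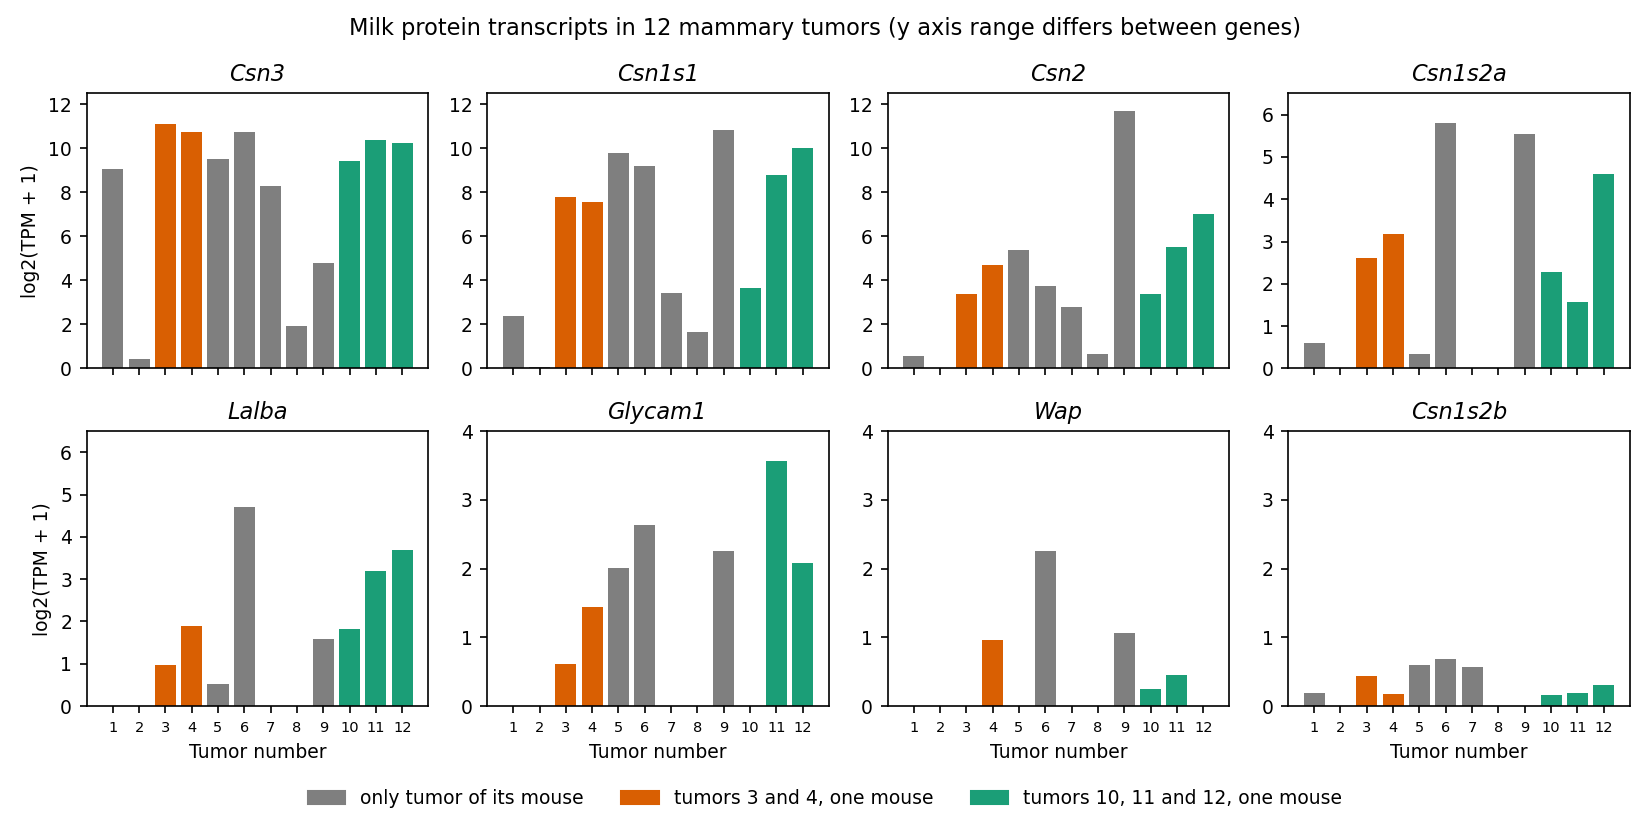
Level of each milk gene, as log2(TPM + 1), in each of the 12 tumors, with bars coloured by mouse where a mouse gave several tumors; the y axis differs between genes. Csn3 is high in 9 tumors, while Csn2 towers in tumor 9 at 3323 TPM, and tumor 2 is at or near 0 for all genes.

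Levels were ordered on the log2(TPM + 1) scale after averaging the tumors of a mouse. Csn3 came first with a mean level of 7.30 ± 3.94 (SD, n = 9 mice), then Csn1s1 with 5.84 ± 3.98, Csn2 with 3.80 ± 3.58, Csn1s2a with 2.00 ± 2.38, Lalba with 1.24 ± 1.65, Glycam1 with 1.09 ± 1.12, Wap with 0.45 ± 0.76 and Csn1s2b with 0.29 ± 0.27. None of the 7 neighbouring pairs in this order differed by more than 1 SD of the paired difference over mice. Of all 28 pairs, 10 did, and each of these set Csn3 or Csn1s1 above one of Csn1s2a, Lalba, Glycam1, Wap and Csn1s2b. Csn1s1 exceeded each of those 5 genes in 9 of 9 mice. The order of the means was the same without the mice of tumors 2 and 8, with Csn3 at 9.05 ± 2.1 and Csn1s1 at 7.26 ± 3.21 (n = 7 mice). Without the mouse of tumor 6 the order changed, with Glycam1 (0.90) above Lalba (0.81) and Csn1s2b (0.24) above Wap (0.22). Milk genes varied widely between mice, as the choice of the set leads one to find: the median SD of the 8 was 2.01, beside 0.57 for the 16802 genes with a mean of 1 TPM or more.

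The makeup of the milk transcripts differed from tumor to tumor. Summed over the 8 genes, milk transcripts ranged from 0.406 TPM in tumor 2 and 5.49 TPM in tumor 8 to 5257 TPM in tumor 9, with a median of 1766 TPM. Csn3 led in 10 of 12 tumors, with up to 99.0% of the sum in tumor 1. Those 10 include tumors 2 and 8 with their low sums, and without these Csn3 led in 8. Csn1s1 led in tumor 5 with 53.1%, where Csn3 held 44.2%. In tumor 9 Csn2 held 63.2%, Csn1s1 35.3% and Csn3 0.503%. The ratio of Csn3 to Csn1s1 ran from 0.0143 in tumor 9 to 125 in tumor 1, so the main casein was not the same across tumors. The 2 whey genes and Glycam1 stayed minor, with Lalba at no more than 1.05% of the sum (tumor 6) and Wap at no more than 0.157% (tumor 6).

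**Figure D2:**
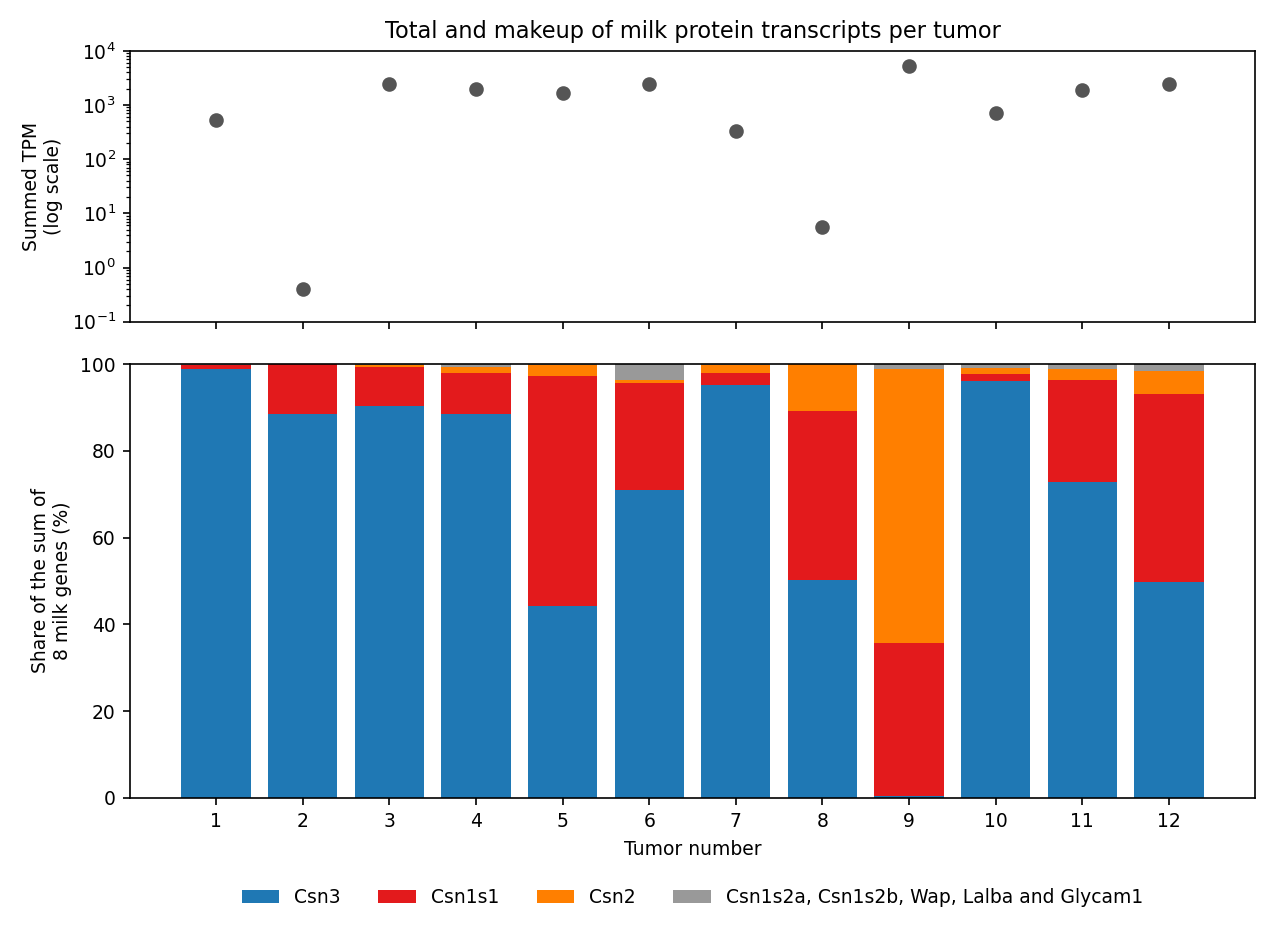
Summed TPM of the 8 milk genes per tumor on a log axis (top) and each gene's share of that sum in percent (bottom). Csn3 leads in 10 tumors (8 without tumors 2 and 8), Csn1s1 in tumor 5 with 53.1% and Csn2 in tumor 9 with 63.2%.

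Which milk genes went together was read from Spearman's rho over the 9 mice, calling a pair together at 0.7 or more and apart at -0.7 or less. Of 28 pairs, 12 went together, none went apart, the median rho was 0.66 and the range was 0.24 to 0.93. Without the mice of tumors 2 and 8, which were lowest for Csn3 and Csn1s1, 8 pairs went together, the median was 0.45 and 4 pairs had a rho below 0. The share of all expressed genes at 0.7 or more was also larger over those 7 mice, between 4.00% for Lalba and 7.82% for Csn2. Leaving out 1 mouse at a time gave 9 to 18 pairs, with 9 without the mouse of tumor 2 or of tumor 8 and 18 without the mouse of tumor 9. All points share the TPM scale, and the tissue makeup of each tumor enters every gene at once.

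Csn1s1 and Csn2, the convergent neighbours, were one close pair. Their rho was 0.92 (Pearson r 0.85, n = 9 mice), and 0.86 without tumors 2 and 8. Csn1s1 also went with Glycam1, which lies on chromosome 15 (0.89, and 0.85 without tumors 2 and 8). The Pearson r of that pair was 0.93 over 9 mice. Csn2 went with Glycam1 too (0.78, and 0.63 without tumors 2 and 8). Csn1s1 was together with 4 of the 7 other genes, and 4.2% of 16801 expressed genes reached the same rho with it. The other members of the 4 were Csn1s2a and Lalba (0.73 each), which stood at 0.50 and 0.52 without tumors 2 and 8, leaving 2 of 7 beside 5.96% of expressed genes. Csn2 was together with 2 of 7, beside 4.32% of expressed genes, and with 1 of 7 beside 7.82% without tumors 2 and 8.

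Csn1s2a, Wap, Lalba and Glycam1, which were low in most tumors, formed another close set. Csn1s2a went with Wap (0.93), Lalba (0.88) and Glycam1 (0.82), Lalba with Wap (0.90) and Glycam1 (0.91), and Wap with Glycam1 (0.80). All 6 of these pairs stayed at 0.7 or more without tumors 2 and 8, the lowest being Csn1s2a with Glycam1 at 0.72. Without tumors 2, 8 and 9 the pairs of Glycam1 with Csn1s2a and Wap were at 0.55 and 0.59. With each tumor as a unit 3 of the 6 were under 0.7, namely Csn1s2a with Glycam1 (0.69), Wap with Lalba (0.68) and Wap with Glycam1 (0.62). Csn1s2a and Lalba were each together with 4 of 7 other milk genes, Wap with 3 and Glycam1 with 5. The share of expressed genes past the same rho was 2.23% for Csn1s2a, 2.2% for Lalba, 1.61% for Wap and 3.2% for Glycam1. Without tumors 2 and 8 Csn1s2a and Lalba were under 0.7 with Csn1s1 (0.50 and 0.52), and Glycam1 with Csn2 (0.63). The shares were then 4.09% for Csn1s2a, 4.00% for Lalba, 5.26% for Wap and 5.21% for Glycam1. Zeros in the same tumors, such as tumors 2, 7 and 8 for all 4, enter these values as ties.

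Csn3, which lies in the same cluster on chromosome 5, had a median rho of 0.55 with the other 7 genes, and Csn1s2b had the lowest median, 0.42. The rho of Csn3 was 0.52 with Csn1s1 and 0.43 with Csn2 (Pearson r 0.58 and 0.22, n = 9 mice). Without tumors 2 and 8 the rho was -0.04 and -0.11, and Pearson r was -0.171 and -0.699 (n = 7 mice). Without the mouse of tumor 9 alone the rho was 0.81 and 0.71. With Csn1s2a and Lalba the rho of Csn3 was 0.66 each, and with Wap it was 0.55. Without tumors 2 and 8 the values for Csn1s2a, Lalba and Wap were 0.36, 0.45 and 0.33. Without tumors 2, 8 and 9 they were 0.89, 0.81 and 0.88. Over 9 mice Csn3 was together only with Csn1s2b (0.75, and 0.50 without tumors 2 and 8), a gene that stayed under 1 TPM, while 4.93% of expressed genes reached 0.7 with Csn3 and 4.9% with Csn1s2b. For Csn1s2b values this low leave little to read from a correlation. Without tumors 2, 8 and 9 together the rho of Csn3 with Csn1s1 and Csn2 was 0.54 and 0.43, close to the values over 9 mice. Tumors 2 and 8 were low for all 3 genes, and tumor 9 was low for Csn3 and highest for Csn1s1 and Csn2.

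**Figure D3:**
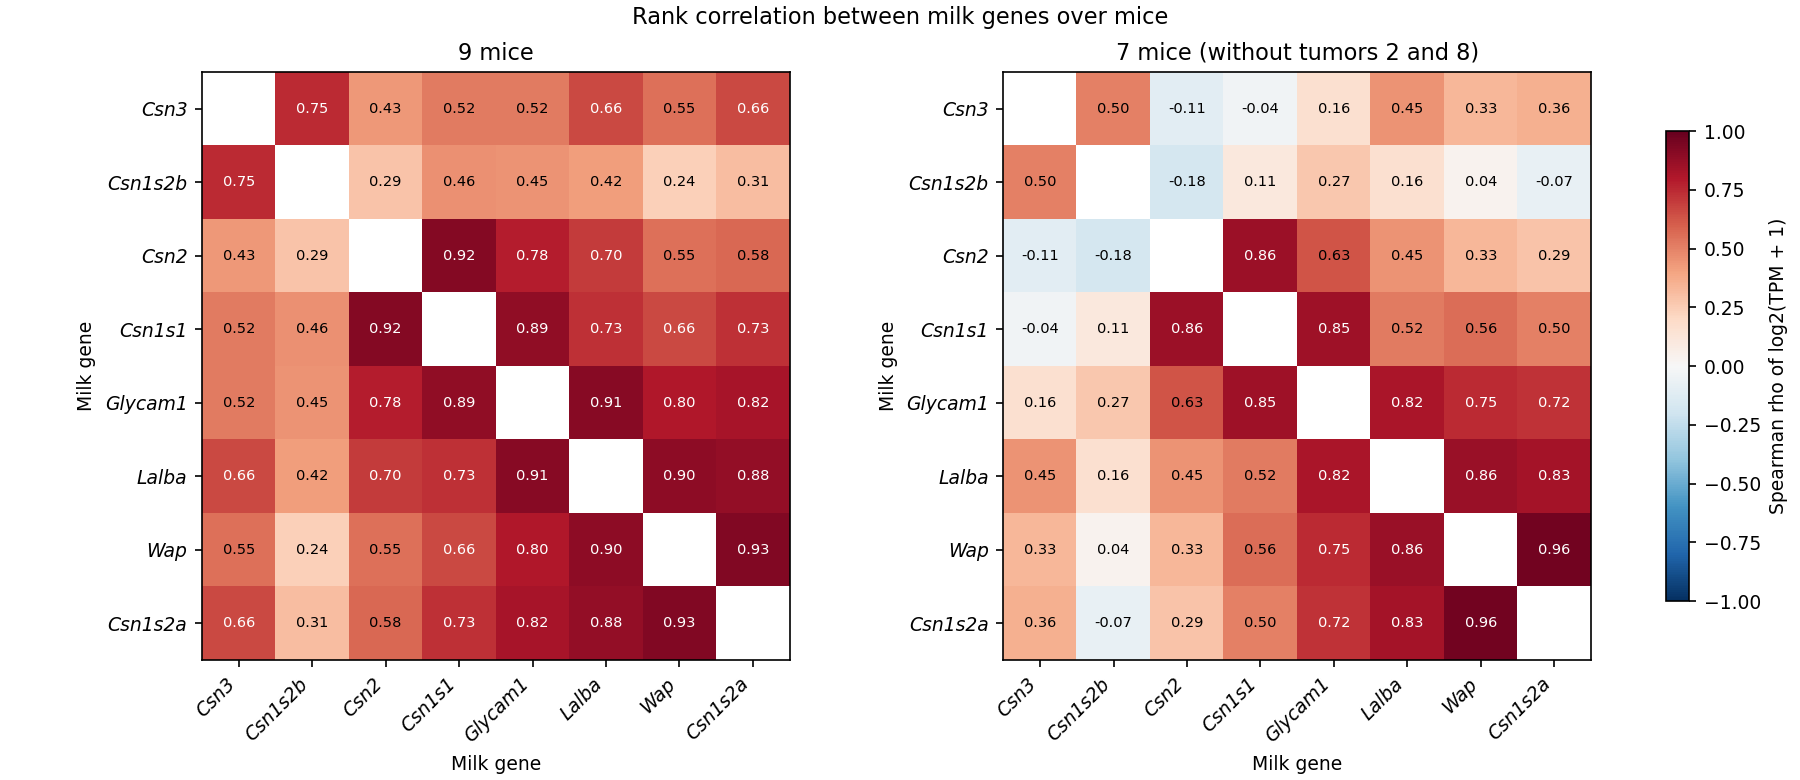
Spearman's rho of log2(TPM + 1) for each pair of milk genes over 9 mice (left) and over the 7 mice left without tumors 2 and 8 (right), in colour from -1 to 1 with values printed. Csn1s1 with Csn2 (0.92 and 0.86) and Csn1s2a with Wap (0.93 and 0.96) stay high in both, and Csn3 with Csn2 goes from 0.43 to -0.11.

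**Figure D4:**
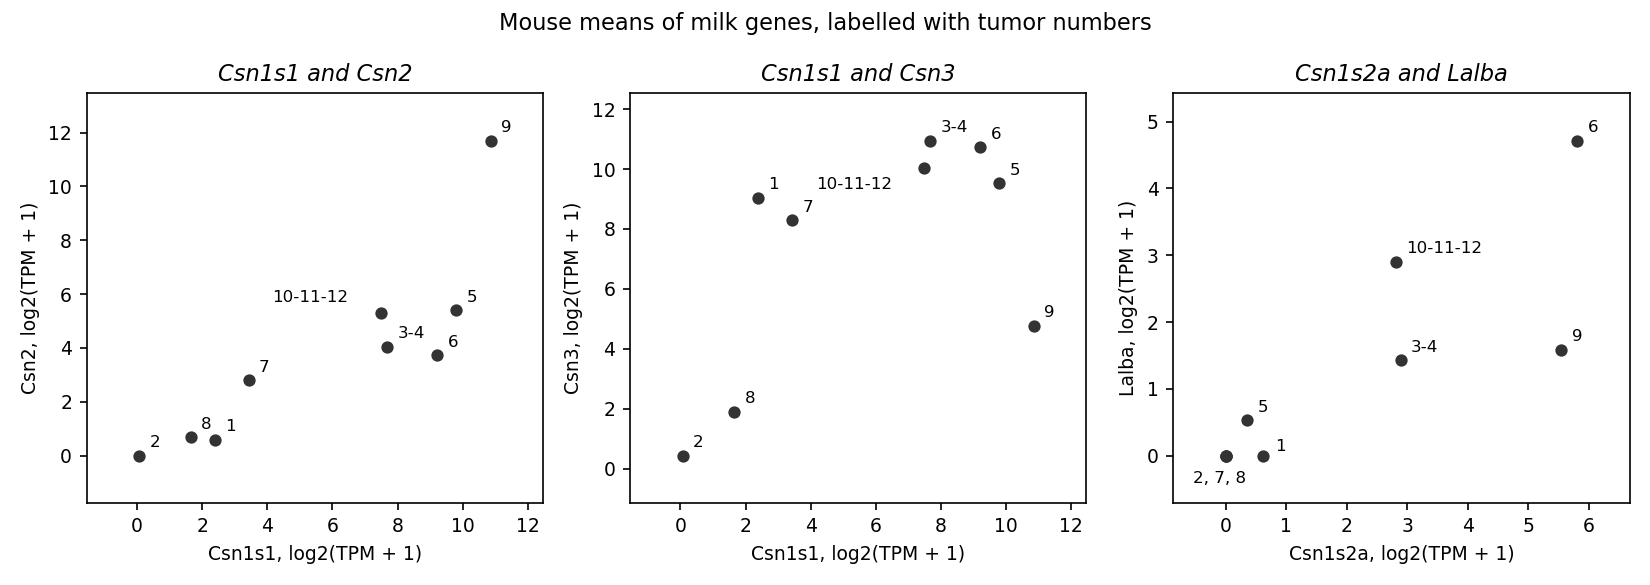
Mouse means of log2(TPM + 1) for Csn1s1 against Csn2 (left), Csn1s1 against Csn3 (middle) and Csn1s2a against Lalba (right), 1 point per mouse labelled with its tumor numbers. In the middle plot tumors 1 and 7 have high Csn3 with low Csn1s1, and tumor 9 has the reverse.

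Tumors of one mouse share an animal, and the differences between them were set beside those between mice. For Csn3 the 4 same-mouse pairs differed by a mean of 0.59 on the log2(TPM + 1) scale. The 62 pairs of different mice differed by 4.04, and the 41 such pairs without tumors 2 and 8 by 2.05. Tumor 9, with 26.5 TPM of Csn3, was still among those 41 pairs. Csn1s1 differed by 3.26 within mice and 4.48 between mice, and by 3.57 between mice without tumors 2 and 8. Glycam1 differed more within mice (1.99) than between mice (1.42). Averaged over the 8 genes the same-mouse difference was 1.43 and the other 2.38, a gap of 0.96 that became 0.58 without tumors 2 and 8, 0.31 without tumors 2, 8 and 9, and 1.85 without the mouse of tumors 10, 11 and 12. With 2 mice behind the 4 pairs, no test was made.

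Within the mouse of tumors 10, 11 and 12 the caseins separated. Csn1s1 stood at 11.5, 437 and 1051 TPM in tumors 10, 11 and 12, a 91.4-fold ratio between tumors 12 and 10, and Csn2 at 9.51, 44.6 and 127 TPM, a 13.4-fold ratio. Csn3 was 681, 1356 and 1201 TPM, a 1.76-fold ratio between the same tumors. Lalba followed with 2.51, 8.21 and 12.0 TPM, whereas Csn1s2a was 3.85, 1.98 and 23.3 TPM. Tumor 10 was thus a tumor with high Csn3 and low Csn1s1 beside 2 tumors of its mouse that had both.

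**Figure D5:**
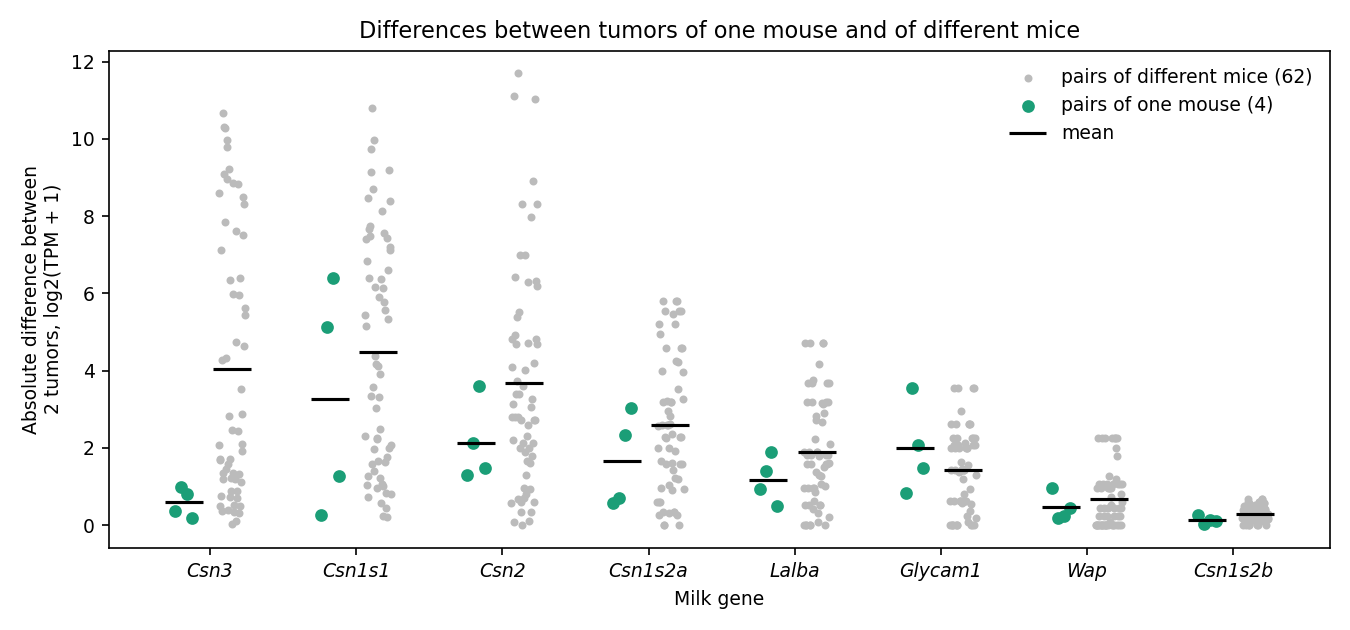
Absolute difference in log2(TPM + 1) between 2 tumors, for the 4 pairs from one mouse (green) and the 62 pairs from different mice (grey), per milk gene, with black lines at the means. For Csn3 the 4 same-mouse pairs average 0.59 and the others 4.04 (2.05 without tumors 2 and 8). For Glycam1 the same-mouse mean is the higher one.

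Regulators of lactation were read against the 3 most abundant caseins, from a list of 15 genes of which 14 had a mean of 1 TPM or more. With Csn1s1, 5 of the 14 reached a rho of 0.7, with Csn2 5 and with Csn3 1, and without tumors 2 and 8 the counts were 2, 4 and 0. Of all expressed genes, 4.2%, 4.32% and 4.93% did so over 9 mice, and 5.96%, 7.82% and 6.64% over the 7 mice left. Stat5a, the transcription factor downstream of the prolactin receptor, had a rho of 0.87 with Csn1s1 and 0.85 with Csn2 (0.96 and 0.89 without tumors 2 and 8), and 0.30 with Csn3. It was highest in tumor 9 at 53.8 TPM, and in tumors 10, 11 and 12 of one mouse it was 15.1, 38.7 and 51.2 TPM, in the same order as Csn1s1. Cish, a feedback inhibitor induced by STAT5, had a rho of 0.80 with Csn1s1 and 0.78 with Csn2 (0.61 and 0.54 without tumors 2 and 8), and was highest in tumor 9 at 32.1 TPM. Socs2, another inhibitor of that kind, went with Csn3 instead (0.77) and had a rho of 0.07 with Csn2, while without tumors 2 and 8 its rho with Csn3 was 0.64.

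Several regulators were less close to Csn1s1 and Csn2. Stat5b, the close relative of Stat5a, had a rho of -0.22 with Csn1s1 and -0.07 with Csn2. Elf5 and Prlr, the prolactin receptor, had a rho of 0.32 and 0.20 with Csn2, and both were low in the tumor with the most Csn2: tumor 9 had 6.77 TPM of Elf5 and 0.483 TPM of Prlr, beside medians over tumors of 110.5 and 13.6 TPM. Id2 and Ehf, which act in alveolar and luminal cells, were nearer to the pattern of Stat5a, with a rho of 0.93 and 0.88 with Csn2 (0.86 and 0.82 without tumors 2 and 8). Erbb4, a receptor of the lactating gland, did not exceed 0.0474 TPM in any tumor.

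Other milk constituents were compared with the same 3 caseins. Of 17 listed genes 15 had a mean of 1 TPM or more, and 3 of the 15 reached 0.7 with Csn1s1, 3 with Csn2 and 0 with Csn3, and without tumors 2 and 8 the counts were 1, 4 and 1. The shares of all expressed genes were 4.2%, 4.32% and 4.93% over 9 mice, and 5.96%, 7.82% and 6.64% without those tumors. Over the 9 mice those with Csn2 were Pigr (0.92), which carries immunoglobulin A into milk, Muc15 (0.87), a mucin of the fat globule membrane, and Mfge8 (0.82), another protein of that membrane. Pigr repeated the pattern of Csn2 in its extreme, with 898 TPM in tumor 9 and no more than 4.54 TPM elsewhere. Wfdc18 and Lcn2 were the most abundant genes of the list by mean TPM, with medians over tumors of 2779 and 3732 TPM, and their rho with Csn2 was 0.27 and 0.22. Btn1a1, the butyrophilin of the fat globule, had a rho of 0.00 with Csn2 and -0.82 without tumors 2 and 8.

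Genes of other cell types were measured beside the milk genes. Their counts are read against the shares of all expressed genes at 0.7 or more, which were 4.2% for Csn1s1, 4.32% for Csn2 and 4.93% for Csn3 over 9 mice, and 5.96%, 7.82% and 6.64% without tumors 2 and 8. Of the 7 luminal and epithelial genes, 4 reached 0.7 with Csn3 and none with Csn1s1 or Csn2, and without tumors 2 and 8 none did with any of the 3. Of the 4 adipocyte genes with a mean of 1 TPM or more, 1 reached 0.7 with Csn1s1, 3 with Csn2 (median 0.81) and 0 with Csn3, and without tumors 2 and 8 the counts were 1, 4 and 0. The summed level of the 5 listed adipocyte genes ran from 12.4 TPM in tumor 1 to 351 TPM in tumor 4. Adipoq, which defines adipocytes, was at 0 in tumors 1 and 2 and highest in tumor 4 at 32.7 TPM, and its rho with Csn2 was 0.83 (0.75 without tumors 2 and 8). The part of fat tissue in the Csn2 values was not tested.

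Markers of high endothelial venules were examined because those vessels also make Glycam1. Beside the counts for Csn1s1, Csn2 and Csn3 that follow, 4.2%, 4.32% and 4.93% of all expressed genes reached 0.7 over 9 mice, and 5.96%, 7.82% and 6.64% did without tumors 2 and 8. Their enzyme Chst4 and their factor Nkx2-3 were at 0 in all 12 tumors. The sum of the 6 listed genes ran from 0 in tumor 1 to 187 TPM in tumor 8, where Glycam1 was at 0. Of that sum Ccl21a alone made up 184 TPM, with Madcam1, Ackr1 and Fut7 at 0.643, 1.42 and 1.03 TPM. With Glycam1 the rho was -0.10 for Ccl21a, 0.36 for Madcam1, 0.37 for Ackr1 and 0.45 for Fut7. Of the 3 with a mean of 1 TPM or more, 0 reached 0.7 with Csn1s1, 1 with Csn2 and 0 with Csn3, and without tumors 2 and 8 the counts were 2, 2 and 1. Madcam1, an adhesion molecule of such vessels, was highest in tumor 9 at 25.6 TPM, and tumor 11, the highest for Glycam1, had 1.34 TPM. Among B lymphocyte genes none of 5 reached 0.7 with Csn1s1, Csn2 or Csn3, and without tumors 2 and 8 the counts were 1, 2 and 0. None of the 5 T lymphocyte genes did in either set of mice, and their sum ran from 3.26 TPM in tumor 1 to 81.7 TPM in tumor 9. Another 5 genes were listed for myoepithelial cells, the contractile cells around alveoli. Of these, 1 reached 0.7 with Csn1s1, none with Csn2 and 1 with Csn3, and none did without tumors 2 and 8. Their sum ran from 42.8 TPM in tumor 8 to 275 TPM in tumor 9, where Myh11 alone was at 250 TPM and Acta2 was at its lowest, 22.2 TPM. The part of these cells in the milk values was not tested.

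The genes most alike to each milk gene were taken as the 3 highest rho among the expressed genes, and a high value is set by choosing the top of 16801. Csn1s1 was most like Slc37a1 (0.98), Bglap3 (0.98) and Clpb (0.98), and Csn2 most like Gm16175 (1.00), Mrpl38 (0.98) and Ttpa (0.98). For Csn3 they included Mettl22 (0.98) and Usp43 (0.97). Lalba was most like Oxtr (0.94), the oxytocin receptor, C530043A13Rik (0.94) and Amy1 (0.94). The same measure placed Csn1s2a with Amy1, Fryl and Gm15727 (each 0.95), Wap with Prss32 (0.93), Csn1s2a (0.93) and E130311K13Rik (0.91), and Glycam1 with Lipm (0.98), 4930452B06Rik (0.98) and Dcaf12l1 (0.96). Wap was the one member with another milk gene among its 3. Csn1s2b, all of whose values were under 1 TPM, was most like Dhx32 (0.98), BC030343 (0.97) and Metap1d (0.97). Bglap3 and Amy1 belong to families of near-identical copies, so their values are uncertain.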

How the data were processed

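RNA from 12 tumors was sequenced as 75-bp read pairs from stranded mRNA libraries. The deposited values are TPM: the authors trimmed adapters with fastq-mcf, aligned reads to GRCm38 with HISAT2 and quantified with StringTie 2.1.6. How transcripts were summed per gene is not given in the sources used here. TPM is relative, so an abundant gene lowers all others, and depth cannot be recovered from it.

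From these values log2(TPM + 1) was computed and tumors of a mouse were averaged, giving 9 mice. Spearman's rho and Pearson's r were computed with Python 3.11.15, numpy 2.4.6 and pandas 2.3.3, for the 28 pairs and against 16802 genes with a mean of 1 TPM or more over mice. The functions were tested on simulated data. The members and lists were chosen with earlier results of these data known. Named genes were the 8 members, list genes with a lactation role or at the extremes of their list, the 3 genes most alike to each member, Brca1 and Trp53. Epcam, Cd79a, Cd79b, Madcam1, Ccl21a, Ackr1, Fut7, Myh11, Acta2, Adipoq, Bhlha15, Smr3a and Dcpp1 were named after their values were seen. One gene that the rule names is not reported here. Positions are from GENCODE M21 and promoter windows from RefSeq, both on GRCm38. Alternatives were a pseudocount of 0.1, rescaling without mitochondrial or milk genes, single tumors as units, Pearson's r, members with a mean of 1 TPM or more, averaging the milk total over the tumors of a mouse, and leaving out mice.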

Additional observations from a re-analysis of the deposited data

Results flagged for a closer look

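Each of the 8 milk genes was examined over the 9 mice for a value lying far from the rest, and about 1 in 20 such groups is expected to show one by chance. The genes were chosen because milk genes varied in these tumors, so the gaps describe them and are no test. Csn2 was highest in the mouse of tumor 9 at 11.70 on the log2(TPM + 1) scale, and the next mouse stood at 5.40, a gap of 0.54 of the whole range. Wap was highest in the mouse of tumor 6 at 2.25, with the next mouse at 1.06, a gap of 0.53 of the range. The Wap value corresponds to 3.76 TPM, and 5 of the 9 mice were tied at 0, so no limit applies to that gap.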

How the results depend on the processing

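The mean levels that moved by more than the spread between mice did so with a pseudocount of 0.1, which lowers genes near 0: Csn1s2b to -1.95, Wap to -2.01, Lalba to -0.55 and Glycam1 to -0.73. The number of milk gene pairs with a rho below 0 was 0 over 9 mice, 1 with each tumor as a unit and 4 without the mice of tumors 2 and 8, and 0 to 1 when 1 mouse was left out at a time, with 1 without the mouse of tumor 6. The number of pairs at 0.7 or more was 12, 8 with each tumor as a unit, 11 with Pearson's r and 12 after either rescaling. No paired analysis was possible because the 12 tumors form 1 group. Values near 0 TPM limit what Wap, Csn1s2b and Glycam1 can show, since depth is unknown, and 9 mice leave each rho open to 1 or 2 animals.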

Other observations

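Genes of lactose and milk fat synthesis were compared with Csn1s1, Csn2 and Csn3. Of 16 listed genes 15 had a mean of 1 TPM or more, and 2 of these reached a rho of 0.7 with Csn1s1, 3 with Csn2 and 2 with Csn3. Without tumors 2 and 8 the counts were 3, 2 and 2. Of all expressed genes, 4.2%, 4.32% and 4.93% did so over 9 mice, and 5.96%, 7.82% and 6.64% without tumors 2 and 8. Thrsp, a lipogenic factor, had a rho of 0.88 with Csn2 (0.93 without tumors 2 and 8), with 99.7 TPM in tumor 9 and 1.71, 43.0 and 129 TPM in tumors 10, 11 and 12. Fasn, fatty acid synthase, had a rho of 0.78 with Csn2 (0.64 without those tumors). Ugp2, which makes UDP-glucose, and Elovl1, a fatty acid elongase, went with Csn3 at 0.78 and 0.85 (0.89 and 0.75 without those tumors). B4galt1, the catalytic partner of alpha-lactalbumin in lactose synthase, was present in every tumor at 11.9 to 189 TPM, and its rho was 0.07 with Lalba (-0.36 without those tumors) and 0.58 with Csn3 (0.14).

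Salivary and lacrimal acinar genes were mostly low or at 0. Of 4 with a mean of 1 TPM or more, 1 reached 0.7 with each of Csn1s1, Csn2 and Csn3, and without tumors 2 and 8 the counts were 0, 1 and 0, beside the same shares of all expressed genes. Amy1 was the one with Csn1s1 (0.80) and Csn2 (0.72) over 9 mice, and without tumors 2 and 8 it had 0.64 and 0.50. In that smaller set Bhlha15 was the one with Csn2, at 0.71 (0.60 over 9 mice). Bpifa2 was at 0 in all 12 tumors and Smr3a stayed at or below 0.752 TPM. Dcpp1 was listed in tumor 5 alone, at 43.3 TPM. Aqp5, a water channel of secretory glands, ranged from 0 in tumor 2 to 1196 TPM in tumor 11 and had a rho of 0.72 with Csn3. Without tumors 2 and 8 that rho was 0.43.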
